A study of Mus musculus with 10 samples.

Results

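The 49 genes described here encode the Wnt ligands, their receptors, the secreted proteins that block or strengthen them, and intracellular and nuclear members of the pathway that respond to the signal. They were chosen by name from the 38720 gene symbols of the count table and fall into 8 roles: 17 Wnt ligands, 10 Frizzled receptors, 8 secreted antagonists, 4 R-spondins, 3 Lgr receptors of the R-spondins, 2 ubiquitin ligases that remove Frizzled from the cell surface (Rnf43 and Znrf3), 3 intracellular feedback genes (Axin2, Nkd1 and Nkd2) and 2 nuclear factors (Lef1 and Tcf7). Of these, 47 passed the filter on low counts and were tested. Sfrp5 and Rspo4 did not pass. Sfrp5 had 1 read in wild-type replicate 3 and none in the other 9 libraries, where 3 counts, the most that a count of 0 allows, would be 0.0762 to 0.122 CPM (counts scaled to the library size). Rspo4 had 52 reads over all 10 libraries.

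RNA sequencing measured gene expression in tail buds dissected from mouse embryos at the stage labelled e12point5, in a study of what Lin28 and the let-7 microRNAs do while the caudal body axis lengthens. The Lin28a-induced group (replicates 2, 3, 4 and 5) carried TRE-Lin28a, a doxycycline-responsive Lin28a transgene, together with RLSL-rtTA and FoxD1-Cre, and received doxycycline. The no-Cre group (replicates 6, 7 and 8) carried TRE-Lin28a and RLSL-rtTA, received doxycycline and had no Cre. The wild-type group (replicates 1, 2 and 3) had labels naming neither a transgene nor doxycycline. Induced and no-Cre libraries therefore share both transgenes and the drug, and Lin28a induction depends on the cells in which FoxD1-Cre acted, which the labels do not give. The labels do not say that replicates are separate embryos, nor whether tail buds were pooled, so p-values measure the spread between these libraries, part of which may be technical.

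Wnt proteins are lipid-modified secreted ligands that bind Frizzled receptors at the cell surface. In the canonical branch this stabilises beta-catenin, which enters the nucleus and activates genes together with Tcf and Lef factors, whereas other branches act on cell polarity and movement. In the vertebrate tail bud, Wnt3a is known to keep the axial progenitors in place and to drive presomitic mesoderm genes, and Wnt5a is known for its part in lengthening the posterior axis. R-spondins, through Lgr receptors, protect Frizzled from Rnf43 and Znrf3, while Dkk, Sfrp, Wif1 and Notum proteins restrain the signal outside the cell.

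Lin28a blocks the maturation of let-7, so the Wnt genes were searched for matches to the let-7 seed, bases 2 to 8 of the microRNA. Whether let-7 links Lin28a to these genes was not tested. The RefSeq mature sequences of mouse let-7a, let-7g and let-7i are shown with the seed in capitals, since they differ outside the seed and not within it.
mmu-let-7a-5p: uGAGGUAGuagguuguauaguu
mmu-let-7g-5p: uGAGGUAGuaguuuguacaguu
mmu-let-7i-5p: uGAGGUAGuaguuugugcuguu

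The complement of the seed, CTACCTC, was searched on the sense strand of the longest annotated 3′ UTR of each gene. It occurred in 12 of the 49 Wnt genes (24.5%), in 1898 of 20848 annotated protein-coding genes (9.10%) and in 1472 of 13615 tested genes with an annotated 3′ UTR (10.8%). A match is a description of the letters and not a measured let-7 site. In 7 genes the match reached 8 bases, CTACCTCA, which adds the A opposite the first base of let-7. These 7 are shown with the 8 bases in capitals, from GENCODE M21 transcripts on GRCm38, the assembly also called mm10.
Wnt3a: cggaagtcCTACCTCAatggct
Wnt9a: tgatttctCTACCTCAactgtg
Wnt9b: atttctgcCTACCTCAtacatg
Wnt16: taccatgtCTACCTCAtaaact
Fzd3: tcctctacCTACCTCAcaaagt
Fzd4: agtttcttCTACCTCAcagaga
Dkk3: ttcagctcCTACCTCActgtca

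The 22 bases shown for Wnt3a lie at chr11:59249328-59249349 on the minus strand, and the match starts at base 289 of a 3′ UTR of 1597 bases. The bases shown for Wnt9a are at chr11:59333412-59333433 on the plus strand and those for Wnt9b at chr11:103728685-103728706 on the minus strand. Those for Wnt16 are at chr6:22293546-22293567 and those for Fzd4 at chr7:89412695-89412716, both on the plus strand. Those for Fzd3 are at chr14:65200866-65200887 and those for Dkk3 at chr7:112117728-112117749, both on the minus strand. Wnt10a, Rspo2, Lgr4, Lgr6 and Nkd1 held a match of 7 bases only. Genes with a match had a median 3′ UTR of 2260.5 bases and those without one of 1634 bases, and the part of UTR length in the share was not tested.

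Total counts per library ran from 21762668 to 39517946. Lin28a had 664, 605, 750 and 731 CPM in the Lin28a-induced libraries, 5.03, 4.53 and 2.64 CPM in the no-Cre libraries and 6.16, 5.72 and 4.45 CPM in the wild-type libraries, with replicates in the order listed above, so no library goes against its label. The wild-type libraries stood apart from the others in composition: mitochondrially encoded transcripts took 1.85% to 2.69% of their counts, against 0.446% to 0.690% in Lin28a-induced and 0.525% to 0.610% in no-Cre libraries. The 10 surface ectoderm markers, keratins and Cdh1 among them, summed to 340 to 392 CPM in Lin28a-induced, 358 to 406 CPM in no-Cre and 991 to 1226 CPM in wild-type libraries. The 8 tail bud markers, among them T and Tbx6, summed to 898 to 1212 CPM in Lin28a-induced, 952 to 983 CPM in no-Cre and 418 to 890 CPM in wild-type libraries, and none of them was at 0 in every library. Wild-type replicate 2 held the lowest tail bud sum of its group, 418 CPM against 859 and 890 CPM in replicates 1 and 3. It also held the highest surface ectoderm sum of its group (1226 CPM). Over the 47 tested Wnt genes it was below both other wild-type libraries for 23, above both for 19 and between them for 5. The same count was not made over all tested genes, so these numbers do not set the Wnt genes apart. Values without wild-type replicate 2 are also given where it changed a call, and for several of the genes known from the tail bud.

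**Figure D1:**
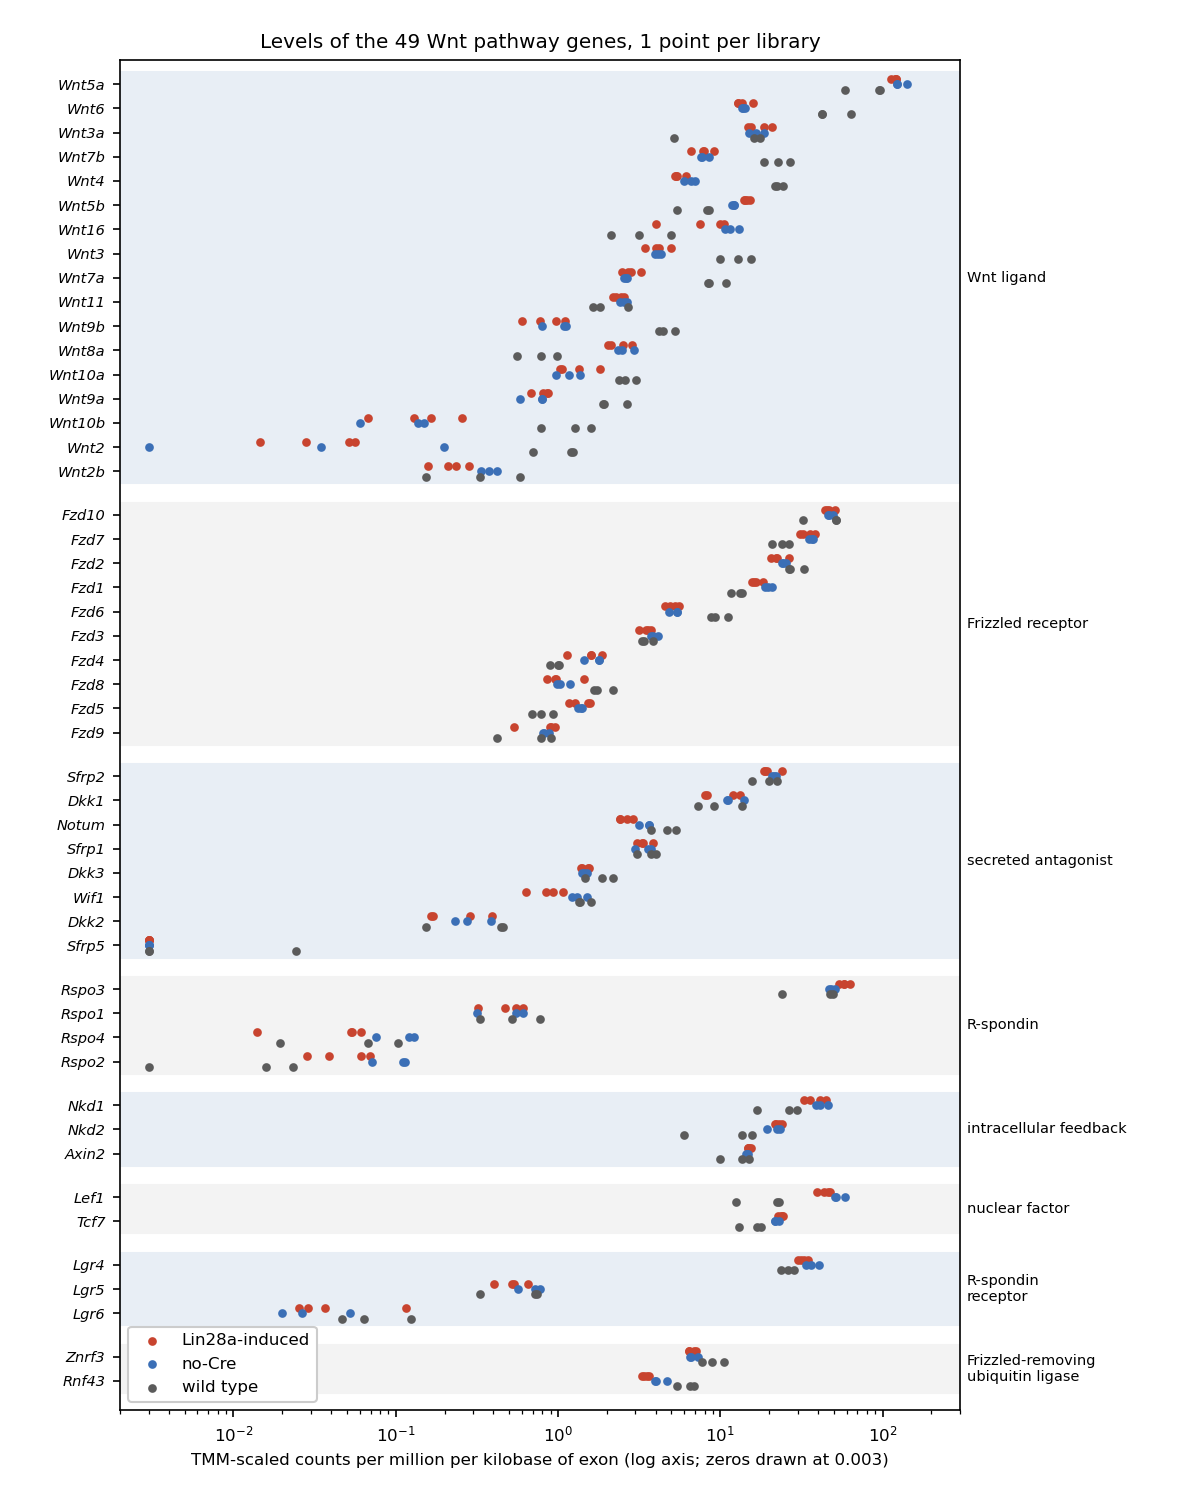
Levels of the 49 Wnt pathway genes by role, in TMM-scaled CPM per kilobase of exon on a log axis, with 1 point per library for Lin28a-induced (red), no-Cre (blue) and wild-type (grey) tail buds. Wnt5a is the highest gene in all groups, and several ligands (Wnt6, Wnt4, Wnt7b, Wnt3) sit to the right in wild type while red and blue points overlap.

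Per kilobase of exon, the scale on which genes can be set against each other, Wnt5a was highest in each group. It had 119 ± 4.40, 129 ± 11.0 and 83.4 ± 21.3 CPM per kilobase in Lin28a-induced, no-Cre and wild-type libraries (SD, n = 4, 3 and 3). Rspo3, a secreted amplifier of Wnt signalling, had 58.3 ± 3.78, 48.6 ± 2.04 and 40.3 ± 14.0 CPM per kilobase and ranked 2 of 49 in Lin28a-induced, 3 in no-Cre (below Lef1) and 4 in wild-type libraries (below Wnt6 and Fzd10). The 17 ligands together reached 201 ± 5.80 CPM per kilobase in Lin28a-induced, 213 ± 10.1 in no-Cre and 239 ± 6.06 in wild-type libraries. Wnt5a made up 59.0% ± 1.10 of that ligand sum in Lin28a-induced, 60.4% ± 2.45 in no-Cre and 34.7% ± 8.13 in wild-type libraries, where single libraries ran from 25.4% to 39.6%. At the low end, 9 of the 49 genes averaged under 1 CPM in Lin28a-induced, 7 in no-Cre and 4 in wild-type tail buds.

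Lin28a-induced against no-Cre tail buds is the comparison in which Cre, and with it Lin28a induction, is the labelled difference. None of the 47 tested Wnt genes passed an adjusted p of 0.05 in edgeR's quasi-likelihood test in either direction, where 476 of all 16340 tested genes (2.91%) did, with 1.76% of tested genes higher and 1.15% lower. At an unadjusted p under 0.05 there were 8 Wnt genes of 47, against 16.3% of all tested genes. DESeq2 called 2 of them lower, Fzd1 (adjusted p = 0.0250) and Wif1 (adjusted p = 0.0479), and none higher, where it called 3.62% of the genes it tested higher and 3.40% lower. The median log2 fold change of the Wnt genes was -0.08, against -0.00 for all tested genes, and the median absolute log2 fold change was 0.118 against 0.116. Of the 47, 15 had a fold change above 0 and 32 below it. The 95% confidence interval lay within 1 log2 unit of no difference for 39 genes and within 0.5 for 24, and for the rest it reached past those sizes.

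The 5 Wnt genes nearest to the threshold, Fzd1, Wif1, Rnf43, Wnt4 and Notum, had lower means in Lin28a-induced libraries, by up to 1.54-fold (Wif1). The receptor Fzd1 had 67.7, 65.7, 70.0 and 76.8 CPM in Lin28a-induced replicates 2 to 5, against 82.9, 87.3 and 79.7 CPM in no-Cre replicates 6 to 8. Every induced library lay below every no-Cre library, and the log2 fold change was -0.25 (SE 0.07, adjusted p = 0.0637). Wif1, a secreted protein that binds Wnt ligands, had 2.28, 2.61, 2.04 and 1.55 CPM in induced libraries, against 2.95, 3.19 and 3.67 CPM in no-Cre libraries. These groups did not overlap either, at a log2 fold change of -0.62 (SE 0.19, adjusted p = 0.104). Notum, an extracellular enzyme that strips the lipid from Wnt ligands, had 7.03, 6.45, 5.77 and 5.82 CPM in induced libraries, against 8.73, 8.73 and 7.55 CPM in no-Cre libraries, again without overlap (log2 fold change -0.41, SE 0.13, adjusted p = 0.122). Exons of Notum share 38.1% of their length with antisense genes, so without the strand setting its reads and theirs cannot be told apart. The same holds over 17.8% of the exon length of Fzd5, 16.1% of Sfrp2, 13.7% of Lef1 and 13.1% of Rspo3. Rnf43, which removes Frizzled receptors, had 23.2, 24.0, 22.3 and 21.7 CPM in induced libraries, against 26.1, 26.4 and 30.9 CPM in no-Cre libraries, without overlap (log2 fold change -0.29, SE 0.09, adjusted p = 0.106).

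Among the abundant genes, Rspo3 and Lef1 differed between the groups in opposite directions without passing the test. Rspo3 had 196, 179, 179 and 168 CPM in Lin28a-induced libraries, against 148, 145 and 157 CPM in no-Cre libraries. Lef1, the nuclear partner of beta-catenin, had 346, 405, 415 and 383 CPM in induced libraries, against 451, 446 and 515 CPM in no-Cre libraries. In neither gene did the groups overlap. The log2 fold changes were 0.26 for Rspo3 (SE 0.21, adjusted p = 0.623) and -0.28 for Lef1 (SE 0.19, adjusted p = 0.536). Wnt5b, a ligand of the non-canonical branch, had 38.9, 37.0, 40.6 and 37.8 CPM in induced libraries, against 32.2, 32.3 and 31.3 CPM in no-Cre libraries, at a log2 fold change of 0.27 (SE 0.12, adjusted p = 0.274).

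These calls changed with the libraries in the fit, and also with the method and the filter on low counts. With a filter of 1 CPM in 3 libraries, edgeR called Fzd1 lower (adjusted p = 0.0498). Leaving out wild-type replicate 3 gained only Fzd1 (adjusted p = 0.0488), and leaving out wild-type replicate 1 gained no Wnt gene. Without wild-type replicate 2, 2 Wnt genes were called higher in Lin28a-induced libraries, Wnt5b (adjusted p = 0.00696) and Rspo3 (adjusted p = 0.00529). The same fit called 6 lower: Fzd1 (adjusted p = 0.00792), Lef1 (0.0168), Rnf43 (0.0183), Notum (0.0291), Wnt4 (0.0392) and Wif1 (0.0485). That fit also called more of all tested genes, 4.65% higher and 4.23% lower. A fit of only the induced and no-Cre libraries also called 2 higher and 6 lower, with Wnt2b (adjusted p = 0.0486) in place of Wnt4, where 5.71% of all tested genes were higher and 5.50% lower. The log2 fold changes themselves hardly moved, at 0.27 for Wnt5b and -0.29 for Lef1 without that replicate. In all, 11 of the 47 genes had groups that did not overlap (2 with higher and 9 with lower induced libraries), against 23.4% of all tested genes.

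**Figure D2:**
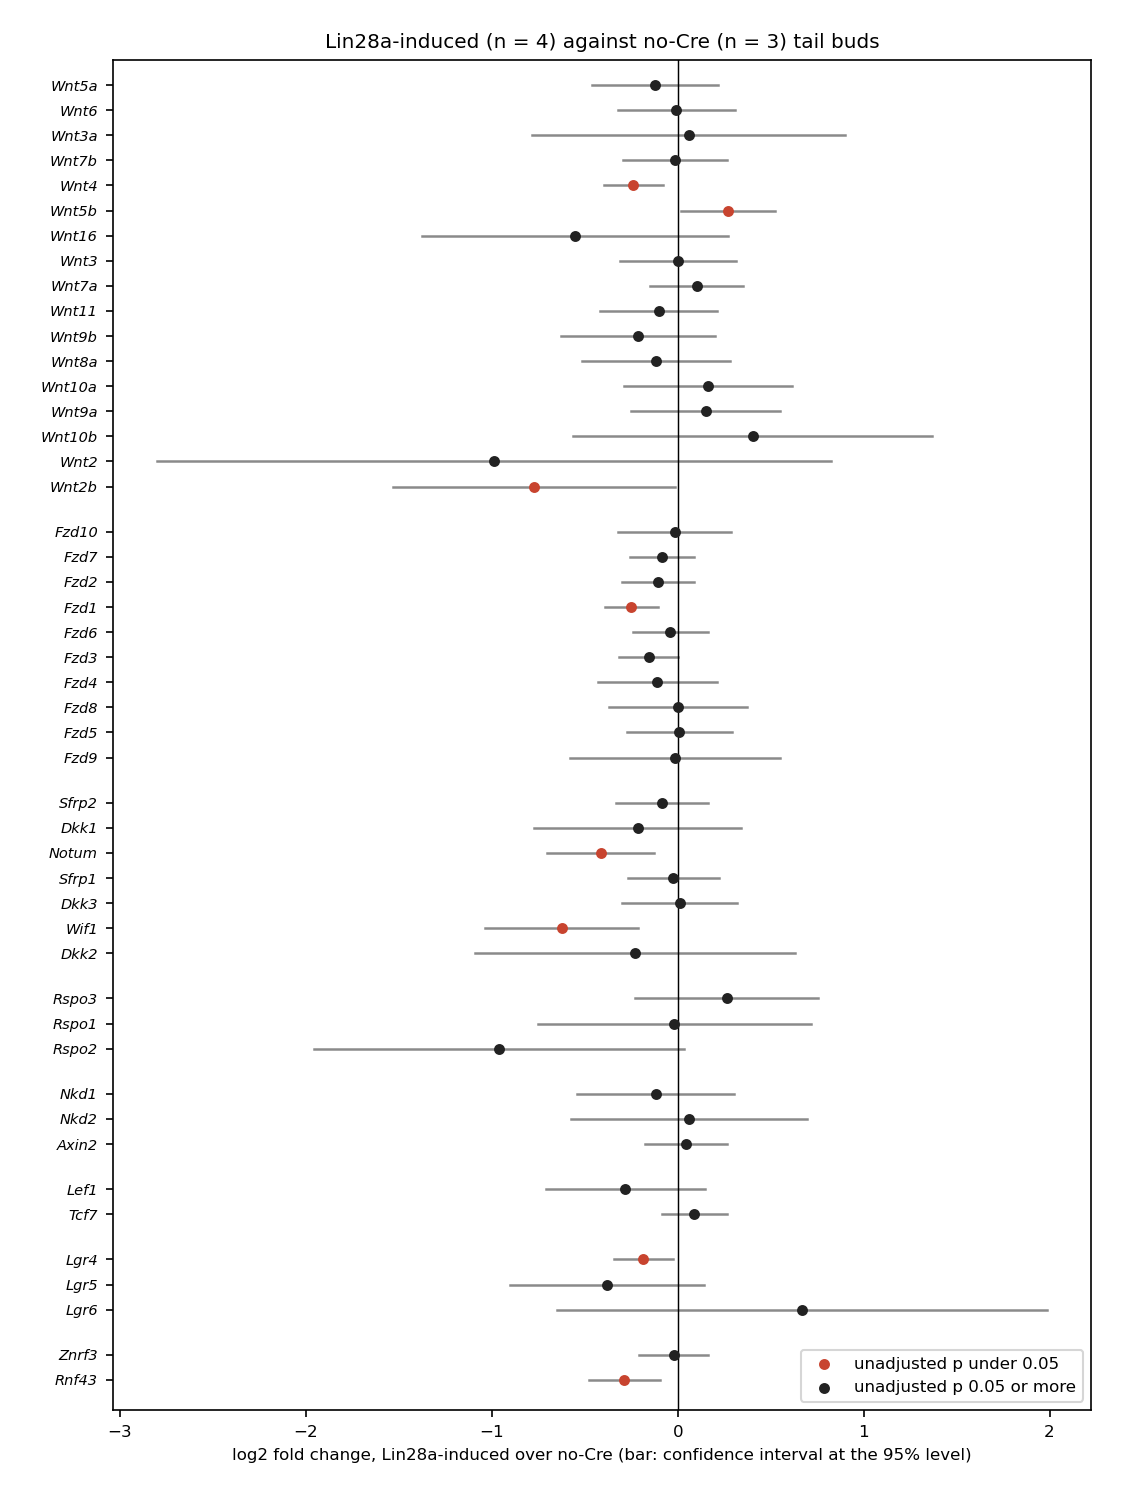
Log2 fold change of Lin28a-induced (n = 4) over no-Cre (n = 3) libraries for the 47 tested Wnt genes, grouped by role, with 95% confidence intervals from the fit of all 10 libraries. Red points mark the 8 genes with an unadjusted p under 0.05, and none passed an adjusted p of 0.05.

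None of the genes best known from the tail bud passed the test between these 2 groups. Wnt3a had 57.4, 42.8, 51.7 and 41.1 CPM in Lin28a-induced libraries, against 51.1, 41.6 and 46.0 CPM in no-Cre libraries, with overlap and a confidence interval for the log2 fold change of -0.78 to 0.90. Wnt5a had 951, 936, 945 and 876 CPM in induced libraries, against 959, 960 and 1108 CPM in no-Cre libraries. Every induced library lay below every no-Cre library, at a log2 fold change of -0.12 (interval -0.46 to 0.22). Axin2, a feedback inhibitor widely used as a readout of canonical Wnt activity, had 84.9, 81.6, 81.5 and 82.7 CPM in induced libraries, against 80.1, 79.0 and 81.6 CPM in no-Cre libraries. Its interval of -0.18 to 0.26 was among the narrower ones. Tcf7, the other nuclear factor, had 59.5, 62.0, 63.5 and 62.9 CPM in induced libraries, against 60.3, 57.2 and 57.3 CPM in no-Cre libraries (interval -0.09 to 0.26). Dkk1, which blocks the Lrp co-receptors, had 20.1, 19.6, 29.1 and 32.1 CPM in induced libraries, against 27.1, 34.1 and 26.8 CPM in no-Cre libraries, and its groups overlapped. Nkd1 had 205, 162, 188 and 150 CPM in induced libraries, against 176, 211 and 187 CPM in no-Cre libraries, and Nkd2 had 116, 105, 110 and 106 CPM, against 108, 94.0 and 112 CPM. These intracellular inhibitors of Dishevelled overlapped between the groups.

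The 12 Wnt genes with a let-7 seed match did not stand on one side in this comparison. Of them, 5 had a log2 fold change above 0 and 7 below it, none passed the test, and the median was -0.11 (range -0.96 to 0.67). For the 35 tested genes without a match, 10 were above 0 and 25 below, with a median of -0.04. Among the 7 with 8 matching bases, Wnt16 had 17.6, 43.3, 32.7 and 45.8 CPM in Lin28a-induced libraries, against 56.8, 50.3 and 46.5 CPM in no-Cre libraries. Induced replicate 2 was well below the other induced libraries, and no induced library reached the lowest no-Cre one. The log2 fold change of Wnt16 was -0.55 (SE 0.35, adjusted p = 0.523). The other 6 had log2 fold changes of 0.06 (Wnt3a), 0.15 (Wnt9a), -0.21 (Wnt9b), -0.16 (Fzd3), -0.11 (Fzd4) and 0.01 (Dkk3).

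Set against wild type, the Wnt genes differed widely. In Lin28a-induced tail buds 14 of 47 were higher and 17 lower, where 24.3% of all tested genes were higher and 25.0% lower. At an unadjusted p under 0.05 there were 34, against 55.6% of all tested genes, and the groups did not overlap for 30 of the 47, against 49.3%. In no-Cre tail buds 14 were higher and 15 lower than in wild type, where 21.0% and 21.4% of all tested genes were. At an unadjusted p under 0.05 there were 31, against 50.5%, and 30 of 47 did not overlap, against 52.0%. The median absolute log2 fold change of the Wnt genes was 0.673 in the first comparison and 0.628 in the second, against 0.307 and 0.282 for all tested genes. Both comparisons use the same 3 wild-type libraries, so their values are given side by side and are not 2 independent results. Without wild-type replicate 2, 15 Wnt genes were higher and 21 lower in Lin28a-induced tail buds, where 22.7% of all tested genes were higher and 22.7% lower. In no-Cre tail buds 16 were then higher and 16 lower, where 19.5% and 19.3% of all tested genes were.

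**Figure D3:**
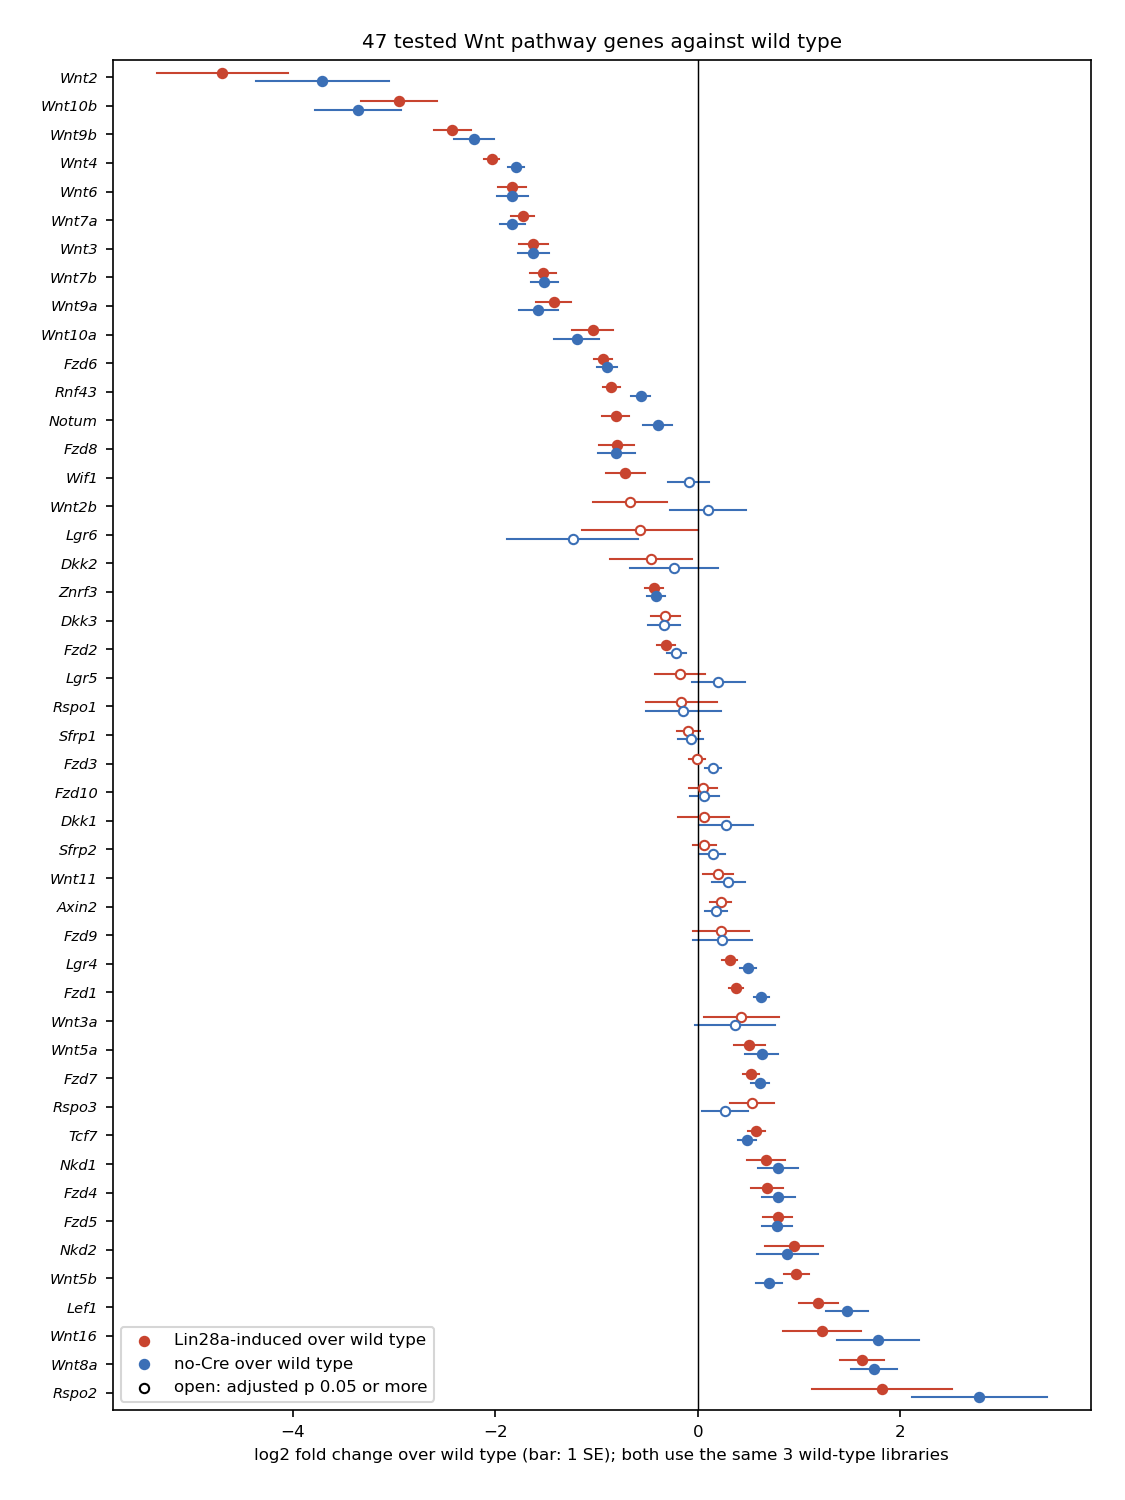
Log2 fold change over wild type of the 47 tested Wnt genes, for Lin28a-induced (red) and no-Cre (blue) libraries, with bars of 1 SE and open points where the adjusted p was 0.05 or more. The 10 genes at the top, all of them ligands, lie more than 1 log2 unit below wild type in both comparisons, led by Wnt2 and Wnt10b.

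The ligands made up most of the lower calls. Of the 17 ligands 10 were lower in Lin28a-induced and 10 lower in no-Cre than in wild-type tail buds: Wnt2, Wnt3, Wnt4, Wnt6, Wnt7a, Wnt7b, Wnt9a, Wnt9b, Wnt10a and Wnt10b in both cases. Wnt3, Wnt4, Wnt6, Wnt7b, Wnt10a and Wnt10b are known from embryonic surface ectoderm. Wnt4 (chr4:137277489-137299726, plus strand) had 22.1, 25.8, 22.3 and 22.8 CPM in Lin28a-induced, 27.8, 25.0 and 29.5 CPM in no-Cre, and 94.0, 102 and 90.8 CPM in wild-type libraries. The wild-type libraries were far above all 7 others, and the log2 fold changes were -2.04 (SE 0.07, adjusted p = 1.52e-10) for Lin28a-induced and -1.80 (SE 0.08, adjusted p = 1.87e-09) for no-Cre over wild type. Wnt6 had 35.0, 28.2, 28.2 and 29.96 CPM in Lin28a-induced, 30.3, 31.2 and 29.9 CPM in no-Cre, and 92.8, 140 and 92.6 CPM in wild-type libraries. It fell by 1.84 on the log2 scale in Lin28a-induced and by 1.83 in no-Cre tail buds, with no overlap in either case. Wnt9b had 4.39, 3.51, 2.70 and 4.98 CPM in Lin28a-induced, 5.06, 3.60 and 4.94 CPM in no-Cre, and 19.0, 23.9 and 20.2 CPM in wild-type libraries, at log2 fold changes of -2.43 and -2.21.

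Wnt7b, Wnt3 and Wnt7a were likewise highest in wild type. Wnt7b had 44.7, 32.2, 38.4 and 38.9 CPM in Lin28a-induced, 37.3, 42.0 and 37.5 CPM in no-Cre, and 91.0, 132 and 111 CPM in wild-type libraries. Wnt3 had 15.2, 12.9, 10.6 and 12.3 CPM in Lin28a-induced, 13.2, 12.2 and 12.8 CPM in no-Cre, and 39.3, 47.8 and 30.7 CPM in wild-type libraries. Wnt7a had 8.91, 8.51, 7.87 and 10.2 CPM in Lin28a-induced, 8.13, 8.43 and 8.30 CPM in no-Cre, and 26.7, 34.6 and 27.1 CPM in wild-type libraries. In each of these 3 ligands the lowest wild-type library was at more than 2 times the highest library of the other groups, and Lin28a-induced and no-Cre libraries overlapped. The log2 fold changes over wild type were -1.53 and -1.51 for Wnt7b, -1.62 and -1.62 for Wnt3, and -1.73 and -1.83 for Wnt7a, with the Lin28a-induced value first in each pair.

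Wnt2 and Wnt10b had the largest log2 falls among the ligands, at low levels. Wnt2 had 0.0330, 0.116, 0.0627 and 0.127 CPM in Lin28a-induced, 0.0782, 0.447 and 0 CPM in no-Cre, and 1.59, 2.72 and 2.80 CPM in wild-type libraries. In reads that was 1 to 5 per induced library, 0 to 15 per no-Cre library and 40 to 67 per wild-type library. Its fitted log2 fold changes of -4.69 (SE 0.65) and -3.71 (SE 0.65) rest on those few reads. Wnt10b had 0.231, 0.871, 0.439 and 0.559 CPM in Lin28a-induced, 0.469, 0.506 and 0.206 CPM in no-Cre, and 4.33, 5.39 and 2.66 CPM in wild-type libraries. Wnt10b fell by 2.95 on the log2 scale in Lin28a-induced and by 3.36 in no-Cre tail buds. Wnt9a, also a low ligand, had 2.67, 2.26, 2.85 and 2.90 CPM in Lin28a-induced, 1.96, 2.65 and 2.64 CPM in no-Cre, and 6.40, 6.33 and 8.86 CPM in wild-type libraries. Wild-type libraries were the highest in all 3 ligands without overlap.

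The surface ectoderm markers moved in the same direction as these ligands. All 10 were lower in Lin28a-induced and in no-Cre than in wild-type tail buds. Krt5, a keratin of basal epidermis, averaged 34.4 ± 4.84 CPM in Lin28a-induced, 37.4 ± 6.13 CPM in no-Cre and 190 ± 21.9 CPM in wild-type libraries. Cdh1, the adhesion protein of epithelia, averaged 86.1 ± 10.4, 86.0 ± 4.37 and 264 ± 33.2 CPM in the same groups (SD, n = 4, 3 and 3). Lower markers were not limited to this list. Of 7 mesenchyme markers, 3 were lower and 1 higher in both comparisons. The hindgut endoderm list summed to 81.0 to 94.1 CPM in Lin28a-induced, 81.7 to 95.7 CPM in no-Cre and 150 to 190 CPM in wild-type libraries. Of its 4 tested markers, 1 was lower and 2 were higher in both comparisons. In bulk tissue fewer cells of a type and less RNA per cell cannot be told apart. The part of any of these marker lists in the ligand values was not tested. Genotype and drug cannot be told apart from anything else that set the wild-type libraries apart, such as their mitochondrial share.

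**Figure D4:**
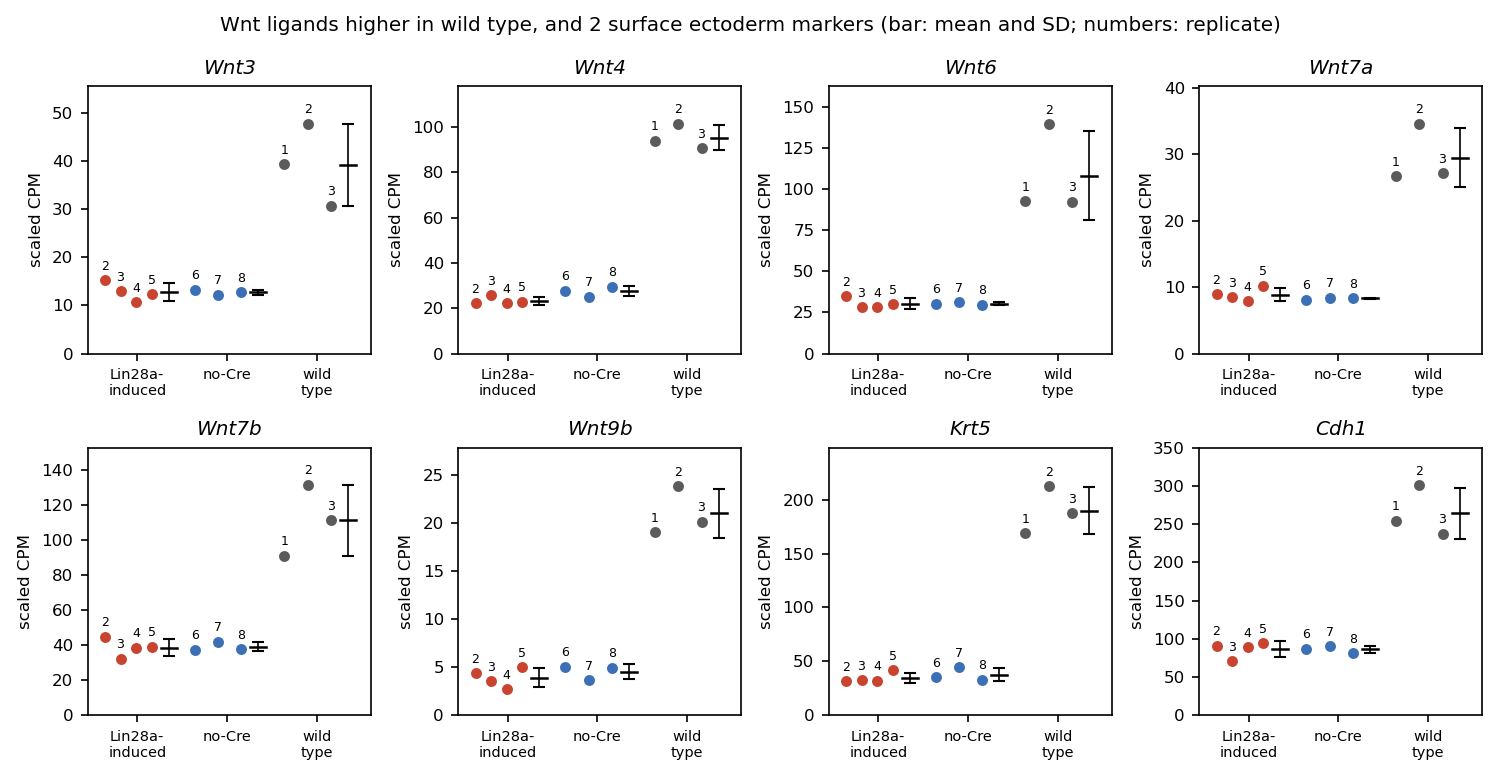
Scaled CPM by library (linear axes from 0) for 6 Wnt ligands and the surface ectoderm markers Krt5 and Cdh1, with replicate numbers above the points and the mean and SD of each group beside them. Wild-type libraries lie above all others in all 8 panels, while Lin28a-induced and no-Cre points share a range.

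Fewer ligands went the other way. Wnt5a, Wnt5b, Wnt8a and Wnt16 were higher in both Lin28a-induced and no-Cre than in wild-type tail buds. Wnt5a (chr14:28504750-28527448, plus strand) had 746, 461 and 752 CPM in wild-type libraries, beside the 876 to 951 CPM of Lin28a-induced and the 959 to 1108 CPM of no-Cre libraries given above. Its log2 fold change was 0.51 (SE 0.15, adjusted p = 0.0219) for Lin28a-induced and 0.63 (SE 0.16, adjusted p = 0.0127) for no-Cre over wild type. Without wild-type replicate 2, the lowest library, the values were 0.31 and 0.43 and still passed. With no filter on low counts the Lin28a-induced call was lost (adjusted p = 0.0633). Wnt5b had 22.7, 14.3 and 22.1 CPM in wild-type libraries, all below the 37.0 CPM or more of induced and the 31.3 CPM or more of no-Cre libraries, at log2 fold changes of 0.97 and 0.70 (0.78 and 0.51 without replicate 2). Wnt8a, a ligand of early posterior mesoderm, had 4.42, 4.99, 3.57 and 3.68 CPM in Lin28a-induced, 5.14, 4.08 and 4.32 CPM in no-Cre, and 1.71, 0.974 and 1.38 CPM in wild-type libraries. Its log2 fold changes were 1.62 and 1.74, with no overlap. Wnt16 had 13.7, 21.7 and 9.23 CPM in wild-type libraries, which overlapped the induced range of 17.6 to 45.8 CPM and not the no-Cre range of 46.5 to 56.8 CPM. Its call for Lin28a-induced over wild type (log2 fold change 1.23, adjusted p = 0.0317) passed in 5 of the 10 fits that each left out a library.

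Wnt3a, Wnt2b and Wnt11 passed in neither comparison with wild type. Wnt3a had 48.8, 14.3 and 44.4 CPM in wild-type replicates 1, 2 and 3, so replicate 2 was at 0.307 times the mean of the other wild-type libraries. The log2 fold change of Wnt3a over wild type was 0.43 (SE 0.37) in Lin28a-induced and 0.37 (SE 0.39) in no-Cre libraries, and without that replicate it was 0.04 and -0.01. The same replicate decided calls of the other ligands named. Wnt11, a ligand of the non-canonical branch, had 10.2, 9.44, 8.97 and 10.5 CPM in Lin28a-induced, 11.0, 10.5 and 9.95 CPM in no-Cre, and 6.80, 11.2 and 7.48 CPM in wild-type libraries. Without wild-type replicate 2, its highest library, Wnt11 was called higher at 0.45 (adjusted p = 0.00508) and 0.56 (adjusted p = 0.00205), against 0.20 and 0.30 with all libraries. Wnt2b had 0.990, 1.19, 0.878 and 0.661 CPM in Lin28a-induced, 1.77, 1.40 and 1.58 CPM in no-Cre, and 1.39, 0.649 and 2.43 CPM in wild-type libraries. Without that replicate Wnt2b was called lower in Lin28a-induced tail buds, at -1.04 (adjusted p = 0.0107) against -0.67 with all libraries.

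The nuclear factors and the feedback genes were higher where they were called. Lef1 (chr3:131110471-131224356, plus strand) had 196, 110 and 203 CPM in wild-type libraries, below every Lin28a-induced (346 or more) and every no-Cre library (446 or more). The log2 fold change was 1.19 (SE 0.20, adjusted p = 0.00111) for Lin28a-induced and 1.47 (SE 0.21, adjusted p = 0.000644) for no-Cre over wild type, and 0.95 and 1.24 without replicate 2. Tcf7 had 44.1, 34.3 and 46.5 CPM in wild-type libraries, again below all others, at log2 fold changes of 0.58 and 0.49. Nkd1 had 121, 76.7 and 134 CPM in wild-type libraries, below the lowest Lin28a-induced (150) and no-Cre (176) libraries, at 0.67 and 0.79 (0.46 and 0.59 without replicate 2). Nkd2 had 75.5, 28.8 and 65.8 CPM in wild-type libraries, at 0.95 (adjusted p = 0.0255) and 0.89 (adjusted p = 0.0457), and at 0.63 and 0.57 without replicate 2. With no filter both Nkd2 calls were lost (adjusted p = 0.0503 for Lin28a-induced and 0.0841 for no-Cre). Both were also lost with only the 2 groups in the fit (adjusted p = 0.0530 and 0.120). The Nkd2 call held in 9 of 10 fits that left out a library for Lin28a-induced and in 2 of 10 for no-Cre over wild type. Axin2 had 82.7, 54.8 and 74.7 CPM in wild-type libraries and passed in neither comparison (log2 fold changes 0.23 and 0.18). Single wild-type libraries moved these values: without replicate 1 Axin2 was called higher in both, at 0.35 (adjusted p = 0.00902) and 0.31 (adjusted p = 0.0244), and without replicate 2 it was at 0.07 and 0.03 and not called.

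**Figure D5:**
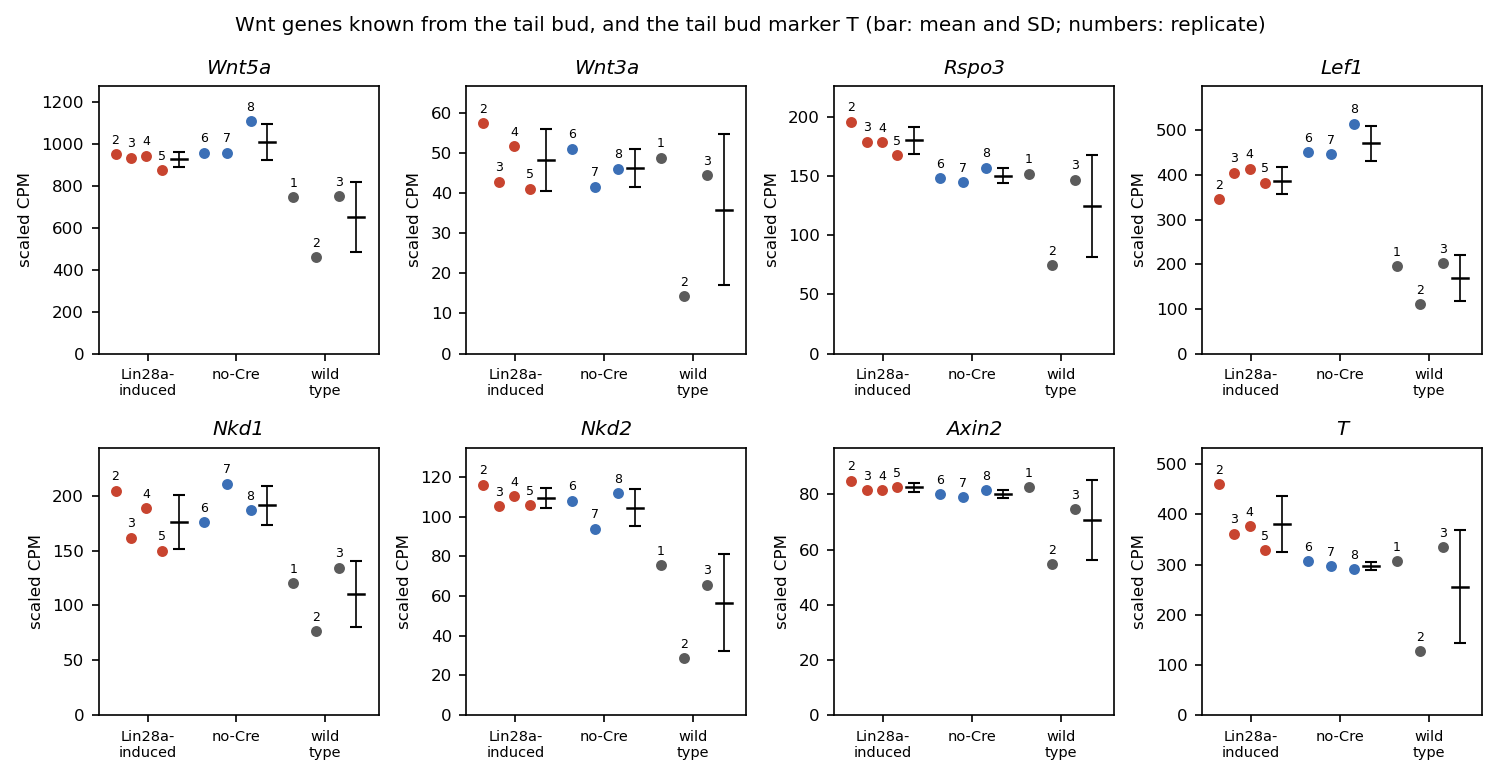
Scaled CPM by library (linear axes from 0) for 7 Wnt genes known from the tail bud and for the tail bud marker T, with replicate numbers above the points and the mean and SD of each group beside them. Wild-type replicate 2 is the lowest library in all 8 panels; Lef1, Nkd1 and Nkd2 lie lower in wild type than in both other groups also without it, whereas Wnt3a and Axin2 do not.

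The Frizzled receptors split by member. Fzd1, Fzd4, Fzd5 and Fzd7 were higher than in wild type in both comparisons, Fzd6 and Fzd8 were lower in both, and Fzd2 was called lower in Lin28a-induced tail buds. Fzd7 had 141, 146, 162 and 173 CPM in Lin28a-induced, 167, 168 and 160 CPM in no-Cre, and 110, 95.0 and 120 CPM in wild-type libraries, without overlap (log2 fold changes 0.53 and 0.61). Fzd5 had 8.08, 8.74, 10.8 and 10.6 CPM in Lin28a-induced, 9.64, 9.74 and 9.16 CPM in no-Cre, and 4.81, 6.41 and 5.42 CPM in wild-type libraries (0.79 and 0.78). Fzd4 had 7.62, 10.8, 10.7 and 12.6 CPM in Lin28a-induced, 11.99, 9.77 and 12.1 CPM in no-Cre, and 6.84, 5.96 and 6.70 CPM in wild-type libraries (0.68 and 0.79). Wild-type libraries were lowest in all 3 receptors. Fzd4 is also an endothelial receptor, and the 6 endothelial markers summed to 254 to 355 CPM in Lin28a-induced, 268 to 304 CPM in no-Cre and 62.2 to 125 CPM in wild-type libraries. All 6 were higher in both groups than in wild type, and their part in the Fzd4 values was not tested. Fzd6, known from epidermis, averaged 24.4 ± 2.06, 25.2 ± 1.73 and 46.8 ± 6.15 CPM in Lin28a-induced, no-Cre and wild-type libraries, at log2 fold changes of -0.94 and -0.90. The surface ectoderm markers given above were lower too, and their part in the Fzd6 values was not tested.

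Fzd10, the most abundant receptor, passed in neither comparison with wild type. It had 165, 147, 152 and 144 CPM in Lin28a-induced, 151, 149 and 161 CPM in no-Cre, and 168, 106 and 167 CPM in wild-type libraries, and wild-type replicate 2 stood apart. Its log2 fold change for Lin28a-induced over wild type was 0.05 (SE 0.14) with all libraries and -0.14 (adjusted p = 0.0427) without that replicate, which turns the sign and makes a call. Fzd2 had 75.5, 80.3, 82.4 and 97.5 CPM in Lin28a-induced, 93.6, 89.8 and 87.5 CPM in no-Cre, and 96.5, 120 and 97.9 CPM in wild-type libraries. Induced replicate 5 reached into the wild-type range, and the log2 fold change was -0.32 (SE 0.09, adjusted p = 0.0102), against -0.21 (SE 0.10, adjusted p = 0.0905) for no-Cre over wild type. The remaining receptors, Fzd3 and Fzd9, passed in neither comparison with all libraries. Fzd3 was called higher in no-Cre tail buds without wild-type replicate 2, at 0.22 (adjusted p = 0.0245) against 0.15 with all libraries. In the same fit Fzd2 was at -0.21 in Lin28a-induced tail buds and still passed.

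Of the genes that set how much Frizzled and R-spondin signal a cell receives, both ubiquitin ligases were lower than in wild type. Rnf43 had 42.5, 35.7 and 45.3 CPM in wild-type libraries, above the 24.0 CPM or less of Lin28a-induced and the 30.9 CPM or less of no-Cre libraries, at log2 fold changes of -0.85 (SE 0.09, adjusted p = 4.76e-06) and -0.57 (SE 0.09, adjusted p = 0.000389). Znrf3 had 50.6, 54.4, 50.3 and 55.6 CPM in Lin28a-induced, 52.1, 51.3 and 57.2 CPM in no-Cre, and 70.0, 82.9 and 61.0 CPM in wild-type libraries (log2 fold changes -0.44 and -0.41). Lgr4, the abundant R-spondin receptor, had 178, 204, 185 and 194 CPM in Lin28a-induced, 213, 199 and 238 CPM in no-Cre, and 153, 140 and 167 CPM in wild-type libraries, and was higher in both comparisons (0.31 and 0.50). Lgr5 had 6.66, 5.34, 5.49 and 4.17 CPM in Lin28a-induced, 5.79, 7.92 and 7.41 CPM in no-Cre, and 7.39, 3.41 and 7.57 CPM in wild-type libraries, with overlap. In the fit that left out wild-type replicate 2, Lgr5 was called lower in Lin28a-induced tail buds, at -0.47 (adjusted p = 0.0388) against -0.18 with all libraries. Lgr6 had 0.198, 0.174, 0.251 and 0.788 CPM in Lin28a-induced, 0.182, 0.357 and 0.137 CPM in no-Cre, and 0.437, 0.852 and 0.321 CPM in wild-type libraries. Its groups overlapped, and neither gene passed with all libraries.

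Among the R-spondins, Rspo3 had 152, 74.6 and 147 CPM in wild-type libraries and was not called (log2 fold change 0.53, SE 0.22, adjusted p = 0.0720 for Lin28a-induced, and 0.27, SE 0.23, adjusted p = 0.376 for no-Cre over wild type). Without wild-type replicate 2 it was 0.27 (adjusted p = 0.00165) for Lin28a-induced and 0.01 for no-Cre. Rspo1 had 1.19, 1.07, 0.627 and 0.915 CPM in Lin28a-induced, 1.17, 1.07 and 0.618 CPM in no-Cre, and 1.51, 1.01 and 0.643 CPM in wild-type libraries, with overlap, and passed in neither. Rspo2 had 0.198, 0.145, 0.314 and 0.356 CPM in Lin28a-induced, 0.365, 0.566 and 0.583 CPM in no-Cre, and 0.119, 0.0811 and 0 CPM in wild-type libraries. It was called higher in both comparisons, at log2 fold changes of 1.82 (SE 0.69, adjusted p = 0.0416) and 2.78 (SE 0.66, adjusted p = 0.00448), but on 5 to 14 reads per induced, 14 to 19 per no-Cre and 0 to 3 per wild-type library. The Rspo2 call for Lin28a-induced over wild type passed in 3 of 10 fits that left out a library, and not in the one without wild-type replicate 2 (adjusted p = 0.0755). Rspo4, which was not tested, had 0.0330, 0.145, 0.125 and 0.127 CPM in Lin28a-induced, 0.287, 0.179 and 0.309 CPM in no-Cre, and 0.159, 0.243 and 0.0459 CPM in wild-type libraries.

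Of the 7 secreted antagonists tested, Notum and Wif1 were lower in Lin28a-induced than in wild-type tail buds and none was higher. Dkk3, a divergent member of the Dkk family, was also called lower without wild-type replicate 2, at -0.46 (adjusted p = 0.0123) in Lin28a-induced and -0.47 (adjusted p = 0.0179) in no-Cre tail buds, against -0.32 and -0.33 with all libraries. Notum had 11.3, 8.96 and 12.8 CPM in wild-type libraries, above every Lin28a-induced (7.03 or less) and every no-Cre library (8.73 or less). Its log2 fold changes were -0.81 (SE 0.13, adjusted p = 0.000254) and -0.40 (SE 0.14, adjusted p = 0.0383), and the no-Cre call passed in 5 of 10 fits that left out a library. Wif1 had 3.30, 3.85 and 3.26 CPM in wild-type libraries, above every induced library, at -0.72 (SE 0.20, adjusted p = 0.00808). For no-Cre over wild type it was at -0.09 (SE 0.21, adjusted p = 0.747). Dkk1 had 17.6, 22.3 and 33.1 CPM in wild-type libraries, and Sfrp2, a secreted Frizzled-like binder of Wnt, had 41.8, 40.8, 39.8 and 51.7 CPM in Lin28a-induced, 47.4, 44.7 and 46.4 CPM in no-Cre, and 48.2, 33.6 and 43.2 CPM in wild-type libraries. Both overlapped across all 3 groups and were not called.

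Wnt pathway genes outside the 49 were counted from 4 further lists. Between Lin28a-induced and no-Cre tail buds, 5 of their genes passed, where 2.91% of all tested genes did. Prickle2, a planar polarity gene, averaged 36.4 CPM in Lin28a-induced and 22.4 CPM in no-Cre libraries (log2 fold change 0.70, SE 0.16, adjusted p = 0.0390) and was the only 1 of 20 tested genes of its list. Of 26 genes of the beta-catenin machinery, Tnks2, which destabilises Axin, was higher (0.24, adjusted p = 0.0233), as was Pygo1, a nuclear co-factor (0.41, adjusted p = 0.0300), and Amer1, a regulator of the Axin complex, was lower (-0.26, adjusted p = 0.0129). Of 16 other secreted and receptor genes, Gpc3, a membrane glypican, was lower (-0.25, adjusted p = 0.0308). None of 17 tail bud genes known to be driven by Wnt, T, Tbx6, Msgn1 and Cdx2 among them, passed in edgeR. T averaged 382 CPM in Lin28a-induced and 298 CPM in no-Cre libraries (adjusted p = 0.639). An unadjusted p under 0.05 was reached by 1 of the 17, against 16.3% of all tested genes.

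Against wild type the same lists showed more calls, as did all tested genes. Of all tested genes, 24.3% were higher and 25.0% lower in Lin28a-induced, and 21.0% higher and 21.4% lower in no-Cre tail buds. Of the 17 Wnt-driven tail bud genes, 7 were higher and 1 lower in Lin28a-induced tail buds, and 6 higher and 0 lower in no-Cre tail buds. Wild-type replicates 1, 2 and 3 had 307, 127 and 334 CPM of T, and 51.1, 16.5 and 53.2 CPM of Msgn1. For Cdx2 they had 54.0, 42.5 and 40.0 CPM, so replicate 2 was not the lowest for every gene. Counts for this list without replicate 2 are not given. Cdx1, a posterior homeobox gene, averaged 3.68 CPM in Lin28a-induced, 2.04 CPM in no-Cre and 0.263 CPM in wild-type libraries, and Cdx2 averaged 82.9, 74.0 and 45.5 CPM in the same groups. Of the other secreted and receptor genes, 3 were higher and 7 lower in Lin28a-induced, and 3 higher and 6 lower in no-Cre tail buds. Frzb, a secreted antagonist, was higher at log2 fold changes of 1.51 and 1.71, while Sostdc1, Kremen2 and Tpbg were lower at -2.05 and -2.10, -1.59 and -1.63, and -0.92 and -0.80. Of the 20 planar polarity genes, 9 were higher and 3 lower in Lin28a-induced, and 7 higher and 2 lower in no-Cre tail buds, with Ror2, a receptor of Wnt5a, at 0.58 and 0.52. Of the 26 beta-catenin genes, 12 were higher and 3 lower, and 10 higher and 3 lower, with small values such as 0.41 and 0.36 for Gsk3a.

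Promoters were searched for the Tcf and Lef motif, CTTTGAT or CTTTGAA on either strand, in RefSeq windows of 250 bases before to 50 bases after the start site (GRCm38). It was found in 3 of the 42 windows of the 34 Wnt genes that matched by symbol (7.14%), those of Dkk1, Wnt11 and Wnt5b, and in 2842 of all 32851 windows (8.65%). The share among the Wnt genes was near that of all promoters.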

How the data were processed

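Gene expression was measured by RNA sequencing in 10 libraries of 3 groups. The deposited table holds raw counts per gene symbol, 1 column per library, which the authors did not normalize. The submitters' processing notes name STAR 2.3.1z4, featureCounts, DESeq2 and mm10. Per the labels' protocols, libraries were made with the NEB Ultra Directional kit and read as single reads of 75 bases. Annotation, strand setting and handling of multiply aligned reads: not given in the sources used here.

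Low counts were removed with filterByExpr. The rest was scaled with TMM and fitted in edgeR 4.0.16 (quasi-likelihood, robust spread; limma 3.58.1, R 4.3.3), with all 10 libraries in 1 fit and 3 comparisons. Adjusted p-values are Benjamini-Hochberg over the 16340 tested genes, with a threshold of 0.05. The SE was taken as the size of the log2 fold change over the root of its F statistic. Exon lengths and 3′ UTRs came from GENCODE M21. Alternatives were DESeq2 1.42.0, its size factors in edgeR, no filter, 1 CPM in 3 libraries, only the groups compared, no mitochondrial or globin genes, a spread that is not robust, a replicate block, and each library left out. The code was tested on simulated data. Python 3.11.15 drew the figures.

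The 49 genes and the other lists were chosen with earlier results of these data known. Values in every library are given for the 8 largest rises and 8 largest falls past 0.05 without overlap in each comparison with wild type, the 3 highest genes per role by level per kilobase, and 10 genes known from the tail bud. Up to 4 genes with the smallest p are named from each other Wnt list. Fzd1, Wif1, Fzd6, Wnt11, Wnt2b, Dkk3, Krt5, Cdh1 and T were given more space after their values were seen.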

Additional observations from a re-analysis of the deposited data

Results flagged for a closer look

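In the Lin28a-induced group, the only one with 4 libraries, 2 of the 47 tested Wnt genes had 1 library far from the rest by Dixon's 95% criterion, which chance meets in about 1 of 20 groups. Fzd9 was lowest in Lin28a-induced replicate 4, at 1.22 CPM, against 2.05 to 2.21 CPM in the other induced libraries. Lgr6, an R-spondin receptor, was highest in Lin28a-induced replicate 5, at 0.788 CPM, against 0.174 to 0.251 CPM in the others. Neither gene passed the test in any of the 3 comparisons.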

How the results depend on the processing

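Lin28a-induced against no-Cre calls depended on the processing, in Wnt genes and in all genes. The counts of Wnt genes were 0 higher and 2 lower by DESeq2, 0 higher and 1 lower with a filter of 1 CPM in 3 libraries, and 2 higher and 6 lower with only the 2 groups in the fit. Over all genes they were 491 higher and 461 lower by DESeq2, and 912 higher and 879 lower with only the 2 groups, against 288 and 188. When each library was left out in turn, they ran from 0 to 2 Wnt genes higher and 0 to 6 lower, and from 73 to 776 genes higher and 31 to 706 lower over all genes. Wild-type replicate 2 gave the upper ends. Against wild type, leaving out a library gave 12 to 15 Wnt genes higher and 17 to 21 lower for Lin28a-induced, and 13 to 16 higher and 14 to 16 lower for no-Cre tail buds. Over all genes these fits gave 3490 to 4111 higher and 3547 to 4100 lower for Lin28a-induced, and 2741 to 3680 higher and 2798 to 3639 lower for no-Cre tail buds.

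Replicate numbers 2 and 3 occur in both Lin28a-induced and wild-type libraries, and the labels do not say whether same-numbered libraries are paired. Their deviations from the group means correlated at -0.0284 and -0.0786. These 2 values cannot settle whether the libraries share more than a number. With a replicate block on these 7 libraries, 7 Wnt genes were higher and 17 lower, against 11 and 17 in the same libraries without the block and 14 and 17 in the fit of all 10. Over all genes 1804 were higher and 2027 lower with the block, against 3385 and 3760 in the same libraries without it. Under the block Axin2 was called higher, at 0.37 (adjusted p = 0.0365). Dkk1 turned to a log2 fold change of -0.46 and was called lower (adjusted p = 0.0375), while Wif1 lost its lower call (adjusted p = 0.316). Wnt16, Fzd1, Fzd4, Fzd5, Lgr4, Nkd1 and Nkd2, called higher in the fit of all 10 libraries, were not called under the block. Without wild-type replicate 2 Fzd10 turned to -0.14, in a range of -0.14 to 0.16 over the fits that left out a library. The causes were not tested. Among genes under 1 CPM in both groups, the Lin28a-induced over no-Cre intervals of Wnt2, Wnt10b, Rspo2 and Lgr6 reached past 1 log2 unit. That of Rspo1 did not (-0.75 to 0.71). The intervals of Wnt2b (means of 0.930 and 1.58 CPM) and Dkk2 (0.938 and 1.10 CPM) also reached past 1 log2 unit. So did those of Wif1 (2.12 and 3.27 CPM) and Wnt16 (34.8 and 51.2 CPM). The part of depth was not tested.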
